A study of Mus musculus with 20 samples.

Results

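Heart and kidney are the organs compared here, through the 8 of 20 mRNA libraries whose column names give either organ, 4 from heart and 4 from kidney. In each organ 2 libraries came from wild-type (WT) mice and 2 from Nsun6-knockout (KO) mice, and both genotypes stood on each side of the comparison. Nsun6 encodes an RNA cytosine methyltransferase, and the KO strain carried a CRISPR/Cas9 deletion of exons 3 and 4 made in fertilized C57BL/6J eggs. All mice were females of 8 weeks, the labels name no other agent for either genotype, and poly(A) RNA of snap-frozen tissue was sequenced. The sources do not say whether a heart and a kidney came from the same mouse, so p-values measure the spread between these libraries. The question put to the data was which mitochondrial, fuel use and ion handling genes the 2 organs held at a like level, and in which gene families each organ used another member.

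The heart pumps without rest and takes most of its ATP from oxidation of fatty acids, lactate and ketone bodies in densely packed mitochondria. The kidney tubule is as reliant on mitochondria, since the sodium pump that powers reabsorption runs on their ATP, and its proximal segment also makes glucose. Many mitochondrial and metabolic enzymes exist as isoforms encoded by separate genes. Muscle forms, liver forms and widely expressed forms can replace each other, and ion transporters divide likewise into those of excitable membranes and those of epithelia.

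Total counts assigned to genes were 17959542 and 36090637 in the heart WT libraries and 15897446 and 41763236 in the heart KO libraries. In kidney they were 25988075 and 25327492 for WT and 25220170 and 24772312 for KO, which makes the kidney depths alike and the heart depths unequal. Values per library below follow the order WT 1, WT 2, KO 1, KO 2. The Nsun6 count in these libraries was 113, 242, 80 and 232 in heart and 189, 141, 111 and 93 in kidney. On the per-length scale, as RPKM (reads per kilobase of exon and 1000000 scaled counts), Nsun6 stood at 1.44, 1.35, 1.23 and 1.12 in heart and at 1.13, 1.21, 0.802 and 0.686 in kidney. In each organ the KO values were the lower ones, but a count over the whole gene does not check the genotype, because the deleted exons are a small share of it. The log2 fold change of Nsun6, heart over kidney, was 0.45 ± 0.25 (SE, 4 libraries an organ) and did not pass the test.

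The organ labels were checked against marker genes. The 10 cardiomyocyte markers summed to 75800 to 90800 CPM (counts per 1000000 counts) in heart and to 7.34 to 19.8 CPM in kidney, and the 10 proximal tubule markers summed to 35300 to 49200 CPM in kidney and 6.92 to 14.1 CPM in heart. Other tissues were present in unequal amounts. The 5 markers of atrial muscle summed to 761, 1510, 68.1 and 535 CPM in heart, led by Myl4, the atrial light chain, and stood at 1.5 to 3.08 CPM in kidney, where 2 of them had no count. The 6 adipose markers, led by Cfd, summed to 1.78, 272, 4.72 and 80.4 CPM in heart and 56.4, 53.1, 39.6 and 0.727 CPM in kidney, with Ucp1 of brown fat at 65.8 CPM in heart WT 2. The 6 fibroblast markers summed to 1590 to 2570 CPM in heart and 206 to 450 CPM in kidney, and the 7 endothelial markers to 635 to 774 and 302 to 510 CPM. The 6 markers of thick ascending limb and distal tubule summed to 4400 CPM in kidney WT 2 and 6730 to 9090 CPM in the other kidney libraries. That gap lay mainly in Slc12a3, at 215 CPM in WT 2 and 1860 to 4850 CPM in the others. Slc12a1 was also lowest in WT 2 (1200 against 1520 to 1610 CPM), but Umod, Calb1, Cldn16 and Pvalb were not. The sum therefore does not show fewer cells of these segments in WT 2. The part of these cells in the results below was not tested, and in bulk tissue fewer cells of a type and less RNA per cell cannot be told apart.

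Some libraries stood apart from others of their organ. Between-library correlations across genes were taken over log2 CPM on scaled totals (genes are not independent). They ran from 0.965 to 0.982 within heart, from 0.904 to 0.982 within kidney and from 0.566 to 0.605 between the organs. In kidney WT 2 the deviation from the organ mean had a Spearman correlation of -0.46 with the GC content of the gene, and the median deviation was -0.694 (log2) in the 20% of genes richest in GC and 0.337 in the 20% poorest. Kidney KO 1 had a correlation of 0.51, with median deviations of 0.322 and -0.164 in the same sets, and kidney WT 1 of 0.23, with 0.341 and -0.0965. Both heart libraries numbered 1 held more of short genes (Spearman correlation with length -0.26 and -0.29), and both numbered 2 held less (0.2 and 0.34). Respiratory chain subunits, a set of short genes with a median length of 1003 bases, followed that split. Of 84 subunits, 79 and 83 lay above the organ mean in heart WT 1 and KO 1, against 1 and 2 in heart WT 2 and KO 2, and 77 did so in kidney WT 2. Heart WT 2 and KO 2 were also the deeper heart libraries, and only their column names carry the word pre. The part of either in the split was not tested.

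Of 55401 genes in the table, 17332 passed the filter on low counts and were tested. A gene was called higher in an organ at an adjusted p under 0.1 and a fold over 2 (quasi-likelihood test of edgeR, adjusted by Benjamini-Hochberg). By that rule 3572 genes, 20.6 percent, were higher in heart and 3879, 22.4 percent, were higher in kidney. With library totals in place of trimmed-mean scaling the counts were 2835 and 4557. Of the calls named below, those of Cox4i1, Cox6b1, Dld, Esrra, Gys1, Hk1, Pdk2, Ppargc1b, Slc27a1, Sod2 and Tfb2m towards heart were lost under that scaling, at log2 fold changes of 0.77 to 1.25. A gene was given as of shared level where the 95% interval of its fold change lay within 2-fold in both directions, and 3677 genes, 21.2 percent, did so. In 8755 genes, 50.5 percent, no heart value overlapped a kidney value. The median log2 fold change of all genes tested was -0.01, and it moved to -0.27 where library totals replaced the trimmed-mean scaling. The genes with the smallest p on the heart side were Kcnk3, a background potassium channel, Asb14, Smyd1, a methyltransferase of muscle, Rpl3l, a ribosomal protein of muscle, and Lrrc39. On the kidney side they were Slc18a1, Hoxd8, Slc6a13, a GABA transporter, Aif1l and Itgb8. Their log2 fold changes lay from 7.68 ± 0.24 (Rpl3l) to 10.38 ± 0.32 (Smyd1) and from -8.36 ± 0.23 (Slc18a1) to -6.48 ± 0.24 (Itgb8), SE, 4 libraries an organ.

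The lists of mitochondrial genes leaned towards heart, with 109 of 294 tested genes higher in heart, 20 higher in kidney and 54 of shared level. With library totals as the scaling, 73 were higher in heart and 26 in kidney. The lists of fuel use split more evenly, with 54 of 134 higher in heart and 48 higher in kidney, but only 9 of shared level. Under library totals the lean of the fuel use lists turned, with 48 higher in heart and 55 in kidney. The lists of ion handling held 38 of 128 genes higher in heart, 56 higher in kidney and 14 of shared level. These shares, 37.1 and 6.8, 40.3 and 35.8, and 29.7 and 43.8 percent, stand beside the 20.6 and 22.4 percent of all genes tested. Genes of shared level made up 18.4, 6.72 and 10.9 percent in the same order, beside 21.2 percent of all genes tested. Of the ion handling calls, 30 towards heart came from the cardiac excitation list and 35 towards kidney from the renal tubule list. Both lists are of genes known for the organ in question, so the direction of those calls restates the organ. The plot of each list by direction shows how much they differ.

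**Figure D1:**
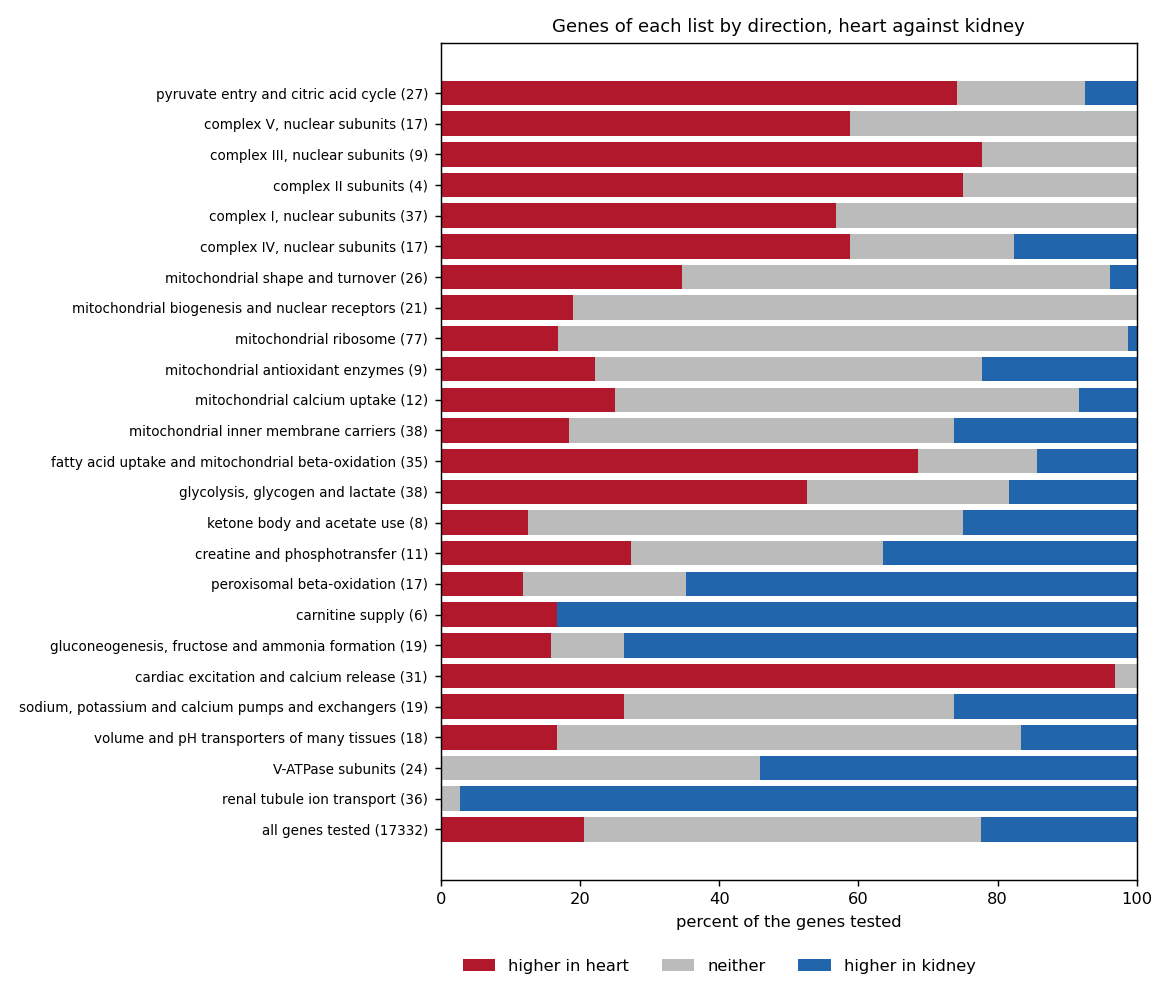
Percent of the tested genes of each list called higher in heart (red), called higher in kidney (blue) or neither (grey), with the number tested in parentheses. The lists of the citric acid cycle and of the respiratory complexes were mostly red, the renal tubule list was 97.2 percent blue, and the bottom bar gives all 17332 genes tested.

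Nuclear genes of the respiratory chain were higher in heart in all 5 complexes, with summed levels 2.07 (complex I) to 2.83 (complex IV) times those of kidney. The chain passes electrons from NADH and succinate to oxygen through complexes I to IV, and complex V uses the proton gradient to make ATP. Of 84 subunits tested (86 listed), 51 were higher in heart, 3 were higher in kidney and 2 were of shared level. These are 60.7, 3.57 and 2.38 percent, beside 20.6, 22.4 and 21.2 percent of all genes tested. The median log2 fold change of the subunits was 1.14, beside -0.01 over all genes tested. By complex, 21 of 37 were higher in heart in complex I, 3 of 4 in II, 7 of 9 in III, 10 of 17 in IV and 10 of 17 in V, and the 3 higher in kidney were all in complex IV. The summed level of the 86 genes was 66340, 40160, 76840 and 37910 RPKM in heart and 16250, 31890, 21860 and 21180 RPKM in kidney, a ratio of 2.43 between the means. All 4 heart sums lay above all 4 kidney sums, although heart KO 2 and kidney WT 2 came close. The kidney mean of 22800 ± 6560 RPKM (SD, n = 4) stood above those of small intestine (15620 ± 5020), liver (13600 ± 408) and spleen (4289 ± 336). The count of subunits called rested on single libraries, being 69 without kidney WT 2, 37 without heart KO 1 and 26 with only the heart libraries numbered 2.

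Single subunits showed the size of the common difference. Ndufv1, which binds NADH in complex I, had a log2 fold change of 1.84 ± 0.21 (SE), and Ndufs1, the iron-sulfur subunit beside it, of 1.78 ± 0.26. Sdha, the flavoprotein of succinate dehydrogenase, measured 400, 444, 495 and 512 RPKM in heart and 122, 228, 198 and 175 RPKM in kidney, a log2 fold change of 1.35 ± 0.27. No Sdha value of one organ reached the other, and its partner Sdhc, at 0.88 ± 0.23, was not called. Uqcrc1 and Uqcrfs1 of complex III rose by 1.95 ± 0.26 and 1.64 ± 0.35 on the log2 scale in heart over kidney, and the ATP synthase subunits Atp5a1 and Atp5b by 1.60 ± 0.31 and 1.42 ± 0.30. Several small subunits did not pass: Ndufa2 was at 0.59 ± 0.51 and Uqcr10 at 0.48 ± 0.40, and their values turned negative with only the heart libraries numbered 2. Ndufb6, at 0.24 ± 0.31, was of shared level, and 39 percent of its exon bases overlap Smim27.

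**Figure D2:**
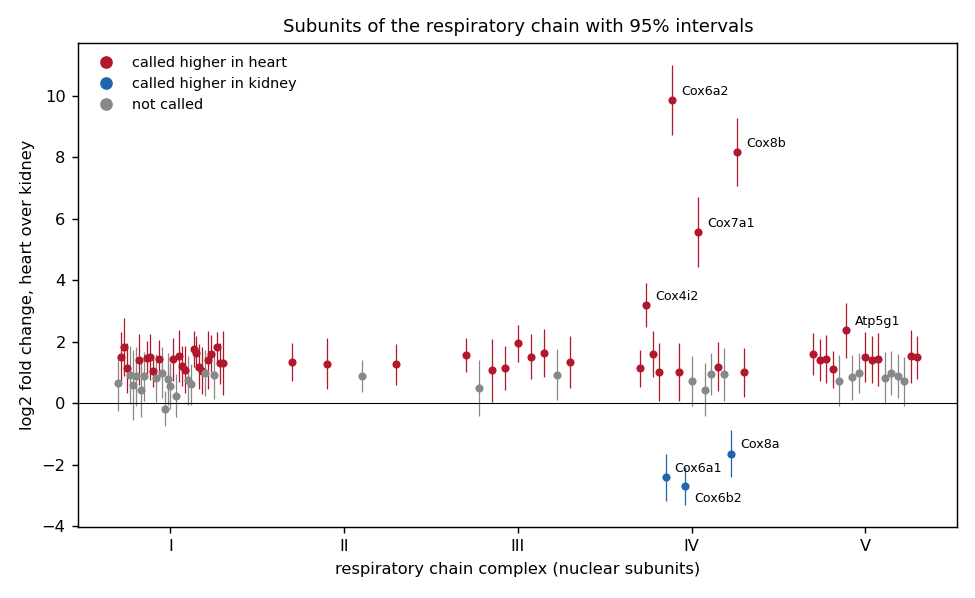
Log2 fold change, heart over kidney, of each tested nuclear subunit with its 95% interval, by complex, coloured by call. Most subunits sit between 0 and 2, and Cox6a2, Cox8b and Cox7a1 of complex IV stand far above while Cox6a1, Cox8a and Cox6b2 lie below 0.

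Subunits encoded in mitochondrial DNA could not be compared. All 37 mitochondrial genes of the annotation, among them mt-Co1, mt-Cytb and mt-Nd1, are listed at 0 in all libraries. Copies of mitochondrial sequence lie on chromosome 1, and 6 of them were counted, led by Gm28661, a full-length match of mt-Co2, and Gm28437, a match of mt-Co3. Their summed level was 11620 ± 2156 CPM in heart and 5240 ± 2817 CPM in kidney (SD, n = 4), against 2056 ± 400 in liver, 1567 ± 751 in small intestine and 297 ± 78.3 in spleen. Reads of these copies and of the mitochondrial transcripts cannot be told apart in these counts.

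Complex IV was the complex in which heart and kidney used different genes. Cytochrome c oxidase subunits 6A, 7A and 8 each exist in a form of striated muscle and a widely expressed form. The muscle genes Cox6a2 (chromosome 7, 128205435 to 128206387, minus strand, GRCm38) and Cox8b (chromosome 7, 140898945 to 140900446, minus strand) were nearly absent from kidney, while the other forms Cox6a1 (chromosome 5, 115345642 to 115348981) and Cox8a (chromosome 19, 7215153 to 7217616) were higher in kidney. Cox6a2 stood at 7697, 3812, 9141 and 4145 RPKM in heart and at 7.08, 5.89, 6.75 and 6.85 RPKM in kidney, a log2 fold change of 9.86 ± 0.51 (SE, adjusted p = 6.8e-07, edgeR). Cox6a1 stood at 251, 138, 266 and 130 RPKM in heart and at 682, 1297, 1150 and 1058 RPKM in kidney, a log2 fold change of -2.41 ± 0.34 (adjusted p = 0.00033, edgeR). The heart libraries numbered 1 were highest for both forms, and the organs did not overlap for either. As a share of the family's RPKM, Cox6a2 made up 96.9 ± 0.299 percent in heart and 0.677 ± 0.248 percent in kidney (SD, n = 4).

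Cox8b and Cox8a, the smallest subunit of the enzyme, split the same way. Cox8b measured 2705, 1348, 3394 and 1438 RPKM in heart against 6.81, 11, 7.13 and 6.06 RPKM in kidney, with a log2 fold change of 8.17 ± 0.49 (SE). Cox8a measured 456, 244, 520 and 226 RPKM in heart against 792, 1287, 1175 and 1251 RPKM in kidney, with a log2 fold change of -1.64 ± 0.34. The muscle form held 85.8 ± 0.896 percent of the family in heart and 0.697 ± 0.185 percent in kidney. Cox7a1, the muscle form of subunit 7A, held 66.8 ± 5.5 percent of its pair in heart and 5.73 ± 0.44 percent in kidney, and its log2 fold change was 5.56 ± 0.50. Its partner Cox7a2 was not called (0.44 ± 0.38), with heart values from 424 to 1205 RPKM and kidney values from 446 to 898 RPKM that overlapped. In subunit 6B, Cox6b1 was the main form in both organs and its call (1.01 ± 0.41) was lost without kidney WT 1 (0.78), kidney KO 1 (1.005), kidney KO 2 (0.95), heart WT 1 (0.92) or heart KO 1 (0.69). The Cox6b1 call was also lost with the size factors of DESeq2 or its Wald test (both 0.95), with library totals (0.77), with at least 10 counts in every library (0.83) and with the heart libraries numbered 2 alone (0.46). Cox6b2, a form known from testis, was higher in kidney at a low level (8.47 to 12.6 RPKM against 1.22 to 2.07). Cox4i2, the form of subunit 4 known from lung, was higher in heart by 3.18 ± 0.32 (log2), but Cox4i1 made up 99.2 percent of that pair in heart and 99.8 percent in kidney.

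Promoters of the 4 genes below are printed because they show how the sequence around the start differs between the members of 2 pairs with opposite calls. Each runs from 250 bases before to 50 bases after the start of the gene in RefSeq (GRCm38.p6), on the strand of the gene, with Cox8b at chr7:140900397-140900696, Cox8a at chr19:7217567-7217866, Pgam2 at chr11:5803747-5804046 and Pgam1 at chr19:41911621-41911920. Capitals mark every CG pair, every TATAAA and every match of GCGCANGCG, the motif of the nuclear respiratory factor Nrf1, searched on both strands. The first pair are the cytochrome c oxidase genes just described, and the second pair are the phosphoglycerate mutases described under glycolysis.
Cox8b: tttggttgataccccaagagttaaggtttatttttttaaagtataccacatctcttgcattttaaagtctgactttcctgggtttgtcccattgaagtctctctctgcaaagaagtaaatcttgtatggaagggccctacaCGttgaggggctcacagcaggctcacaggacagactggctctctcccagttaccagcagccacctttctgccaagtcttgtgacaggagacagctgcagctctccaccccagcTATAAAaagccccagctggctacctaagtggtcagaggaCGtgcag
Cox8a: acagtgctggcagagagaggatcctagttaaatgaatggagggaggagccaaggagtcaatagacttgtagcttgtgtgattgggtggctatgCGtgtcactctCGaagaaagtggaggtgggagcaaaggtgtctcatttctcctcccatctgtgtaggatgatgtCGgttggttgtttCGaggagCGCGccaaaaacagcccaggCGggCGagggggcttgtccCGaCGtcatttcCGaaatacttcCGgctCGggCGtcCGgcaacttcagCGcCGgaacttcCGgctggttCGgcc
Pgam2: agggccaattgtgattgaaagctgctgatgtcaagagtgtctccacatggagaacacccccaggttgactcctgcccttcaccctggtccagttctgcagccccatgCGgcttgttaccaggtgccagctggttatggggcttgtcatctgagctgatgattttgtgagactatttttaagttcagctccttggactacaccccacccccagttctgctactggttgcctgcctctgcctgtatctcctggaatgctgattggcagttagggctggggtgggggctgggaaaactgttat
Pgam1: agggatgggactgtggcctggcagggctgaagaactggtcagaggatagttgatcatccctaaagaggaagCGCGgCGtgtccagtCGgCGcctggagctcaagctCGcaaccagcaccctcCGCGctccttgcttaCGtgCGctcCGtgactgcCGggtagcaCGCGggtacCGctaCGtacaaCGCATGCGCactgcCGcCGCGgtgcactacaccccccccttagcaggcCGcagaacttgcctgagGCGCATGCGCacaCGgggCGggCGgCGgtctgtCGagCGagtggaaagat

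The heart-called member of each pair held few CG pairs and the kidney-called member held many, with 2 in Cox8b against 19 in Cox8a and 1 in Pgam2 against 30 in Pgam1. Over 32851 RefSeq promoters of this length the median was 7. Cox8b was the only promoter of the 4 with TATAAA, letters that 13.6 percent of all promoters hold, and its match lies within the 50 bases after the annotated start, not before it. Pgam1 was the only one with GCGCANGCG, which 6.25 percent of all promoters hold, with 3 matches of which a pair overlap as the forward and reverse reading of the same letters. These pairs were chosen after their letters were seen, and the contrast was not general. Of 61 members of the 20 families described below, 48 had a promoter in the table. The 23 called higher in heart had a median of 16 CG pairs (1 to 36) against 20.5 (2 to 35) in the 20 called higher in kidney. A gene with several annotated starts was counted at the start with the most CG pairs, and the starts of Aldoa held from 0 to 24.

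Isoform families were compared as a whole. Of 48 families of paralogous genes, 20 had at least 1 member called higher in heart and another called higher in kidney, 15 had calls towards heart only, 12 towards kidney only and 1, lactate dehydrogenase, had none. Opposite calls were found in 4 of 10 families of respiration, 12 of 19 of fuel use, 4 of 16 of ion handling and none of the 3 of transcriptional control. The share of the family's RPKM held by the heart-called members did not overlap between the organs in any of the 20 families, a description of the same values that made the calls. It was over 50 percent in every heart library and under 50 percent in every kidney library in 12 families. A summed share under 50 percent does not always mean another leading gene, since Acsl1 had the highest mean share of the long-chain acyl-CoA synthetases in heart (83.3 percent) and in kidney (31.6 percent, with Acsl5 at 30.1 percent). With any single library left out, 16 of the 20 kept opposite calls. Those of subunit 6B of cytochrome c oxidase, the fatty acid transport proteins, phosphoglycerate mutase and glycogen synthase were lost in at least 1 case. Another 5 families gained opposite calls in at least 1 case. They were cytosolic creatine kinase, fructose-bisphosphatase, V-ATPase subunit a, the calcium uniporter gatekeepers and the sodium pump beta subunit.

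**Figure D3:**
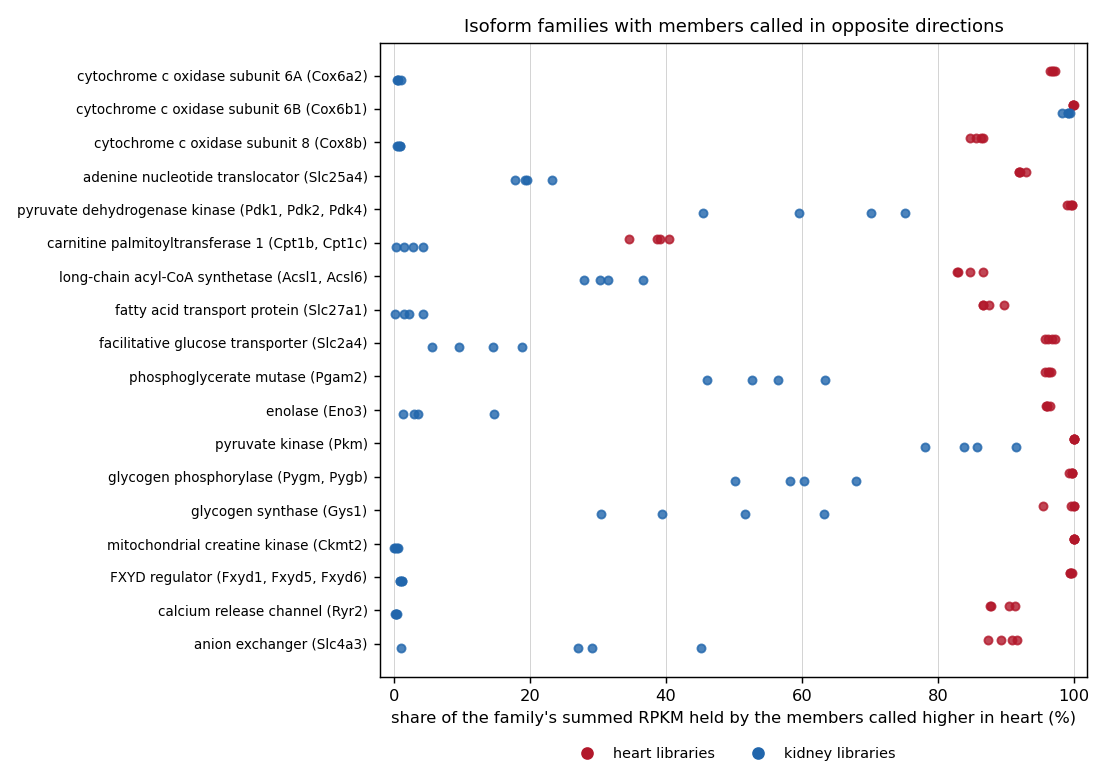
Share (percent) of each family's summed RPKM held by the members called higher in heart, named in parentheses, in each heart (red) and kidney (blue) library, for 18 of the 20 families with opposite calls. Cytochrome c oxidase 6A and 8, mitochondrial creatine kinase and the FXYD regulators sit at opposite ends, while pyruvate kinase and subunit 6B stay on the same side.

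The adenine nucleotide translocator, which exchanges ATP and ADP across the inner membrane, was among the most abundant families. Slc25a4, the form of muscle (chromosome 8, 46206797 to 46211284), measured 5570, 3122, 6096 and 3279 RPKM in heart and 169, 315, 214 and 223 RPKM in kidney, a log2 fold change of 4.29 ± 0.42 (SE). Slc25a5 (X chromosome, 36795651 to 36798807) measured 478, 273, 461 and 286 RPKM in heart and 559, 1304, 987 and 934 RPKM in kidney, a log2 fold change of -1.34 ± 0.35. Every kidney value of Slc25a5 lay above every heart value. Slc25a4 made up 92.2 ± 0.507 percent of the pair in heart and 19.9 ± 2.3 percent in kidney. In subunit c of ATP synthase, of which 3 genes encode the same mature protein, Atp5g1 was higher in heart (2.37 ± 0.39, log2) and rose from 16.9 percent of the family in kidney to 34.9 percent in heart, while Atp5g2 (0.84 ± 0.32) and Atp5g3 (0.99 ± 0.29) were not called. Without kidney WT 2 both passed, at 1.17 and 1.16, and Atp5g3 also passed without kidney KO 1 (1.04), heart WT 2 (1.11) or heart KO 2 (1.12).

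Genes of pyruvate entry and the citric acid cycle were mostly higher in heart, with the largest median of the mitochondrial lists. Of 27, 20 were higher in heart, 2 were higher in kidney and 1 was of shared level. As shares, that is 74.1, 7.41 and 3.7 percent, beside 20.6, 22.4 and 21.2 percent of all genes tested. Over the list the median log2 fold change was 1.78. Citrate synthase, Cs, which opens the cycle, measured 137, 170, 176 and 164 RPKM in heart and 23.2, 30.3, 35.6 and 27.2 RPKM in kidney (log2 fold change 2.48 ± 0.23, SE). Idh2, the NADP-linked isocitrate dehydrogenase of the matrix, measured 575, 565, 730 and 547 RPKM in heart against 107, 94.9, 139 and 107 RPKM in kidney (2.44 ± 0.24). For both genes all heart libraries lay far above all kidney libraries, and Idh2 was highest in heart KO 1. Idh3b (1.97 ± 0.28) and Pdha1 of pyruvate dehydrogenase (1.78 ± 0.25) rose likewise on the log2 scale, while Dld (1.07 ± 0.25) lost its call without kidney WT 1 (0.93), with library totals (0.84) or with at least 10 counts in every library (0.89). Pcx, pyruvate carboxylase, which feeds glucose synthesis, went the other way at -3.05 ± 0.36. Mpc2 of the mitochondrial pyruvate carrier was of shared level at 0.31 ± 0.29. Of the succinyl-CoA synthetase beta subunits, the ATP-forming Sucla2 was higher in heart (1.79 ± 0.27) and the GTP-forming Suclg2 was not called (-0.59 ± 0.23).

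The kinases that switch pyruvate dehydrogenase off were called in both directions. Pdk4, known to rise with fatty acid use and fasting, measured 137, 422, 248 and 64.6 RPKM in heart and 4.17, 9.77, 6.11 and 9.32 RPKM in kidney, a log2 fold change of 4.83 ± 0.62 (SE). Pdk3 measured 1.3, 1.5, 0.753 and 1.62 RPKM in heart and 13.1, 32.4, 22.2 and 24.2 RPKM in kidney, a log2 fold change of -4.13 ± 0.37. Pdk4 varied several-fold among the heart libraries, in no order with genotype or replicate number, and neither gene overlapped between the organs. Pdk1 was higher in heart by 2.35 ± 0.18 (log2) and the phosphatase Pdp1, which switches the enzyme back on, by 2.58 ± 0.30. Pdk2, at 1.09 ± 0.43, lost its call without kidney WT 2 (0.79), kidney KO 2 (0.97), heart WT 2 (0.78) or heart KO 2 (1.04). As shares of the family, Pdk4 held 65.0 ± 18 percent in heart and Pdk3 0.531 ± 0.35 percent (SD, n = 4). In kidney Pdk3 (37.5 ± 13 percent) and Pdk2 (37.4 ± 18 percent) held like shares. Pdk1, Pdk2 and Pdk4 together still held 62.6 ± 13.2 percent there.

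Genes of fatty acid uptake and mitochondrial oxidation were mostly higher in heart, and those of peroxisomal oxidation mostly higher in kidney. Of 35 genes tested in the first list, 24 were higher in heart, 5 higher in kidney and 1 of shared level (median log2 fold change 1.63), and of 17 in the second, 2 were higher in heart and 11 in kidney (median -1.40). The shares are 68.6 percent towards heart and 14.3 percent towards kidney in the first list and 11.8 and 64.7 percent in the second, beside 20.6 and 22.4 percent of all genes tested. Fabp3, the fatty acid binding protein of heart, measured 13071, 7007, 15932 and 5628 RPKM in heart and 143, 299, 210 and 205 RPKM in kidney (5.60 ± 0.52, SE). Cd36, a fatty acid receptor of the plasma membrane, measured 992, 1203, 1158 and 1012 RPKM in heart and 33.8, 79.5, 47 and 61.5 RPKM in kidney (4.30 ± 0.37). Fabp3 followed the short-gene split among the heart libraries and Cd36 did not, and neither overlapped between organs. Acaa2, the last thiolase of the cycle, was higher in heart by 1.66 ± 0.35 (log2) and Ucp3, a carrier of muscle mitochondria, by 8.02 ± 0.60. Acadm, the medium-chain acyl-CoA dehydrogenase, was not called (0.38 ± 0.38), with 494, 499, 578 and 450 RPKM in heart and 152, 488, 384 and 562 RPKM in kidney, where kidney WT 1 and KO 1 lay below the heart values and the other 2 among them.

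Genes of fatty acid activation and entry were called in both directions. Among the long-chain acyl-CoA synthetases, Acsl1 was higher in heart (1.53 ± 0.28, log2, SE) and made up most of the 84.2 ± 1.79 percent that it and Acsl6 held there. Acsl3 (-2.07 ± 0.24), Acsl4 (-1.74 ± 0.22) and Acsl5 (-2.16 ± 0.22) were higher in kidney. Among the fatty acid transport proteins, Slc27a2, which also activates very long chains, measured 491 to 874 RPKM in kidney and at most 0.824 RPKM in heart. Slc27a1, the form of muscle and fat, was called higher in heart (1.46 ± 0.59) but lost the call without kidney KO 1 (1.55), kidney KO 2 (1.39), heart WT 1 (1.49), heart WT 2 (1.44) or heart KO 2 (1.40), and kidney WT 2 held 1.69 RPKM against 10.3 to 21.9 in the other kidney libraries. Of carnitine palmitoyltransferase 1, the entry step of the mitochondrion, Cpt1a was higher in kidney (-2.52 ± 0.23), yet held 61.8 ± 2.5 percent of the family in heart. Cpt1b, the muscle form, was at 2.33 to 3.14 RPKM in heart, and 81.4 percent of its exon bases are shared with the overlapping gene Gm44502. The Cpt1b count is therefore uncertain, and so is the share of Cpt1a in heart, which does not show which form leads there.

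In the peroxisome, Ehhadh, the bifunctional enzyme, was higher in kidney with a log2 fold change of -4.71 ± 0.47 (SE), and Pecr of -4.37 ± 0.32. Acaa1b, a peroxisomal thiolase, stood at 178, 50.6, 125 and 65.1 RPKM in kidney and below 0.4 RPKM in every heart library, and Acox2, the oxidase of branched chains and bile acid precursors, at 19.7 to 39.6 RPKM and 0.0653 to 0.31 RPKM. Cat, catalase, which removes the hydrogen peroxide formed, was also higher in kidney (-1.70 ± 0.25). Abcd2, a transporter of very long chains into the peroxisome, was an exception, higher in heart by 3.70 ± 0.35 (log2), and Scp2 was not called (-0.94 ± 0.30). Scp2 passed without kidney WT 1 (-1.10) or heart KO 1 (-1.09), with library totals in place of trimmed-mean scaling (-1.17), with at least 10 counts in every library (-1.12) and with the heart libraries numbered 2 alone (-1.19). The summed level of the list was 443 ± 46 RPKM in heart and 1412 ± 325 RPKM in kidney (SD, n = 4).

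**Figure D4:**
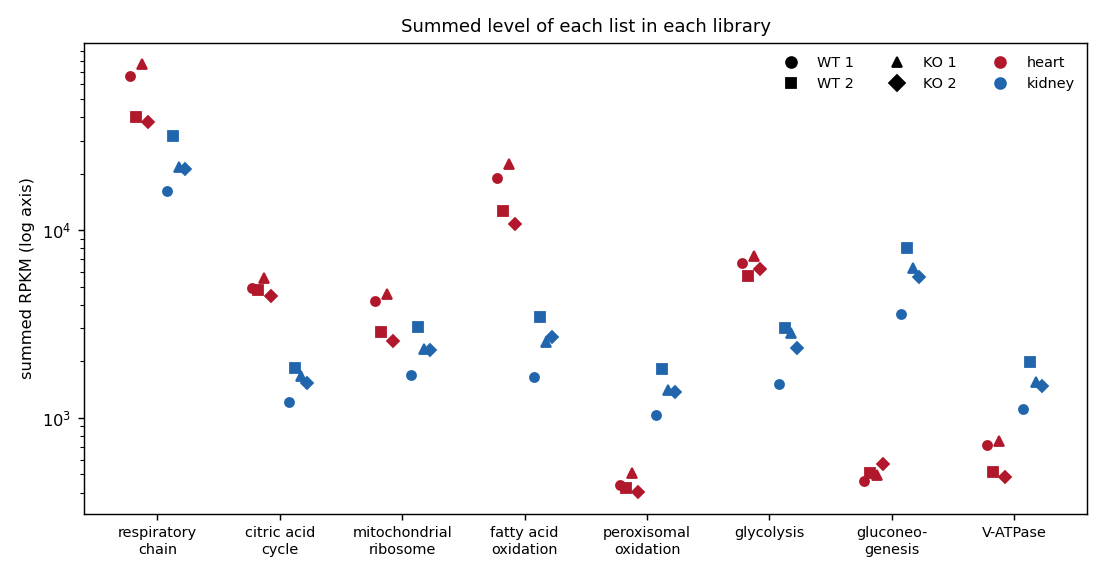
Summed RPKM (log axis) of 8 lists in each heart (red) and kidney (blue) library, with the marker giving genotype and replicate. Heart libraries lie above kidney libraries for the citric acid cycle, fatty acid oxidation and glycolysis, below them for peroxisomal oxidation, gluconeogenesis and the V-ATPase, and the organs overlap for the mitochondrial ribosome.

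Glycolysis was another place where the organs used different members of the same step. Of 38 genes of glycolysis, glycogen and lactate, 20 were higher in heart, 7 were higher in kidney and 3 were of shared level. Towards heart this is 52.6 percent, beside 20.6 percent of all genes tested. Towards kidney it is 18.4 percent, near the 22.4 percent of all genes, and 7.89 percent were of shared level, beside 21.2 percent. The summed level of the list was 6499 ± 670 RPKM in heart and 2427 ± 667 RPKM in kidney (SD, n = 4). Glucose enters muscle through the insulin-responsive carrier Slc2a4, which was higher in heart by 3.79 ± 0.31 (log2, SE) and made up 96.5 ± 0.622 percent of its family there. In kidney it held 12.1 ± 5.77 percent, and Slc2a1 (-1.51 ± 0.19) and Slc2a2, the carrier of tubule and liver (-9.30 ± 0.70), were higher. Hk2, the hexokinase of muscle, stood at 34.6, 28.8, 36.6 and 35.8 RPKM in heart and at 0.0952, 0.0505, 0.0788 and 0.0371 RPKM in kidney (8.98 ± 0.34). Hk1 held 95.2 ± 1.2 percent of the hexokinases in kidney, but it was not higher there: its call towards heart (1.18 ± 0.45) was lost without kidney WT 2 (0.87), kidney KO 2 (1.12), heart WT 2 (0.94) or heart KO 2 (0.99). Pfkm of phosphofructokinase was higher in heart (4.12 ± 0.32), and Pfkp, the platelet form, was of shared level (0.49 ± 0.18).

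Enolase changed its leading gene. Eno3, the muscle form (chromosome 11, 70657202 to 70662513), measured 1024, 962, 1102 and 1085 RPKM in heart and 9.01, 2.01, 5.74 and 3.78 RPKM in kidney, a log2 fold change of 7.66 ± 0.55 (SE). Eno1, the widely expressed form (chromosome 4, 150236721 to 150248879), measured 42.8, 38.7, 45.2 and 39.5 RPKM in heart and 51.7, 142, 158 and 124 RPKM in kidney, a log2 fold change of -1.49 ± 0.32. Neither overlapped, although kidney WT 1 came near the heart values of Eno1. Aldoa, the aldolase of muscle, was higher in heart (2.12 ± 0.28).

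Phosphoglycerate mutase moved less. Pgam2 measured 495, 527, 553 and 470 RPKM in heart and 63.5, 46.6, 72.2 and 40.9 RPKM in kidney (3.20 ± 0.25, log2, SE), and Pgam1 measured 19.3, 23.9, 21.4 and 16.6 RPKM in heart and 36.6, 35.9, 64.7 and 47.9 RPKM in kidney (-1.16 ± 0.23). Pgam2 still held 54.7 ± 7.23 percent of the pair in kidney, and the call of Pgam1 was lost without kidney KO 1 (-0.991) or without heart KO 2 (-0.998). Pyruvate kinase had the same leading gene in both organs: Pkm was the main form in both organs (2.60 ± 0.23, log2), with Pklr, the form of liver and kidney, at 3.02 to 7.48 RPKM in kidney and 0 counts in 3 heart libraries. Glycogen phosphorylase was higher in heart as Pygm (7.21 ± 0.32) and Pygb (4.62 ± 0.23) and higher in kidney as Pygl (-1.97 ± 0.46). Glycogen synthase Gys1 was called higher in heart (1.15 ± 0.35) and Gys2 in kidney (-5.15 ± 1.02), and the Gys1 call was lost without kidney WT 2 (0.94) or heart KO 2 (0.98). Pgk1, whose step has no second form in these lists, was of shared level at 0.17 ± 0.28.

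Lactate dehydrogenase was the family with no call in the fit of all 8 libraries. Ldhb, the form that favours oxidation of lactate, measured 2263, 1351, 2394 and 1514 RPKM in heart and 634, 1449, 1264 and 1066 RPKM in kidney, with a log2 fold change of 0.77 ± 0.35 (SE) that was not called. Ldha, the form of glycolytic tissue, was not called either (0.97 ± 0.31), and both were called higher in heart without kidney WT 2, at 1.05 and 1.28. Ldha also passed without kidney KO 1 (1.01), heart WT 2 (1.07) or heart KO 2 (1.03), and with the heart libraries numbered 1 alone both passed (1.10 for Ldha and 1.03 for Ldhb). Ldhb made up 85.3 ± 1.6 percent of the pair in heart and 87.3 ± 0.45 percent in kidney (SD, n = 4). In small intestine, liver and spleen it made up 1.98 ± 1.2, 1.17 ± 0.76 and 6.15 ± 1.0 percent, outside the range of every heart and kidney library.

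Genes of glucose synthesis were mostly higher in kidney. Of 19 genes of gluconeogenesis, fructose use and ammonia formation, 14 were higher in kidney, 3 were higher in heart and 1 was of shared level. These are 73.7, 15.8 and 5.26 percent, beside 22.4, 20.6 and 21.2 percent of all genes tested. The median log2 fold change of the list was -5.26. G6pc, which releases free glucose, measured 174, 216, 310 and 242 RPKM in kidney, with 0 to 5 counts in any heart library. Fbp1, fructose-bisphosphatase, measured 332, 552, 479 and 488 RPKM in kidney, with 0 to 6 counts in heart. Pck1, which makes phosphoenolpyruvate in the cytosol, was higher in kidney (-8.06 ± 1.41, log2, SE), and its heart values of 0.168, 10.8, 0.135 and 1.83 RPKM were highest in the library with the most adipose marker RNA. Khk, ketohexokinase, was higher in kidney as well (-5.26 ± 0.27). The members higher in heart were led by the aspartate transaminases Got1 (3.08 ± 0.24) and Got2 (1.86 ± 0.24), which in heart serve the malate-aspartate shuttle. Pck2, the mitochondrial form, was of shared level at 0.06 ± 0.22. Fbp2, the muscle form of fructose-bisphosphatase, was not called (0.67 ± 0.36), with 23.9 to 45.8 RPKM in heart and 8.94 to 27.4 RPKM in kidney, and passed without kidney WT 2 (1.03).

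Of 11 genes of creatine and phosphotransfer, 3 were higher in heart, 4 were higher in kidney and 1 was of shared level. The first 2 counts are 27.3 and 36.4 percent, beside 20.6 and 22.4 percent of all genes tested. Creatine kinases buffer ATP by storing phosphate on creatine, which is formed by Gatm and then Gamt. Ckmt2, the mitochondrial kinase of striated muscle, measured 2606, 1714, 3092 and 2071 RPKM in heart, with 4, 0, 2 and 4 counts in kidney. Ckmt1, the form of epithelium and brain, measured 12.1, 31.8, 30 and 25.8 RPKM in kidney and 0.307, 0.48, 0.0309 and 0.136 RPKM in heart (-6.75 ± 0.63, log2, SE). Neither form overlapped between organs. Ckm of the cytosol measured 549, 663, 517 and 738 RPKM in heart and had 2 counts in 1 kidney library, while Ckb was not called (-0.83 ± 0.32) and overlapped. Ckb passed without kidney WT 2 (-1.06) or heart WT 2 (-1.07), in KO libraries alone (-1.52), with library totals as the scaling (-1.10) and with at least 10 counts in every library (-1.03). Gatm was higher in kidney (-7.52 ± 0.35), Gamt likewise (-1.18 ± 0.27), and the creatine transporter Slc6a8 was of shared level (0.23 ± 0.23). Among adenylate kinases, Ak1 was higher in heart (5.01 ± 0.27) and the mitochondrial Ak4 in kidney (-3.40 ± 0.21).

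Carnitine carries fatty acids into mitochondria. Of 6 genes of carnitine supply, 5 were higher in kidney and 1 in heart. The shares are 83.3 and 16.7 percent, beside 22.4 and 20.6 percent of all genes tested. Among those higher in kidney were the transporters Slc22a5 (-2.63 ± 0.21, log2, SE) and Slc22a4 (-3.02 ± 0.25) and Bbox1 of carnitine synthesis (-4.37 ± 0.57, at 0.638 to 2.47 RPKM). Crat, carnitine acetyltransferase, was the member higher in heart (2.31 ± 0.24).

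Of 8 genes of ketone body and acetate use, 1 was higher in heart, 2 were higher in kidney and 3 were of shared level. These are 12.5, 25 and 37.5 percent, beside 20.6, 22.4 and 21.2 percent of all genes tested. Oxct1, which activates acetoacetate and is the committed step of ketone use, measured 693, 529, 746 and 567 RPKM in heart and 385, 664, 534 and 530 RPKM in kidney, a log2 fold change of 0.26 ± 0.29 (SE) with a 95% interval of -0.38 to 0.90. The organs overlapped, with kidney WT 1 lowest. With any of 6 libraries left out the interval reached past 2-fold, at log2 fold changes of 0.20 to 0.46. Acss1, the acetyl-CoA synthetase of mitochondria (0.22 ± 0.19), was of shared level, and Acss2, the cytosolic form, was higher in kidney (-1.87 ± 0.17). Slc16a1, a carrier of lactate and ketone bodies, was higher in heart (3.69 ± 0.30). Acat1 (0.82 ± 0.30) was not called but passed without kidney WT 2 (1.10). Bdh1 (-0.86 ± 0.23) was not called either but passed without kidney WT 1 (-1.06), with library totals in place of trimmed-mean scaling (-1.10), with at least 10 counts in every library (-1.04) and in KO libraries alone (-1.10).

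Of 38 genes listed as mitochondrial carriers, nearly all of the inner membrane, 7 were higher in heart, 10 were higher in kidney and 7 were of shared level. These are 18.4, 26.3 and 18.4 percent, near the 20.6, 22.4 and 21.2 percent of all genes tested. Slc25a11 (2.12 ± 0.21, log2, SE) and Slc25a12 (1.99 ± 0.19), the oxoglutarate and aspartate-glutamate carriers of the malate-aspartate shuttle, were higher in heart, and so was Slc25a34 (4.02 ± 0.19). Slc25a13, the form of the aspartate-glutamate carrier that leads in liver, was not called (0.62 ± 0.21). Slc25a10, the dicarboxylate carrier (-4.16 ± 0.39), and Slc25a21, the oxoadipate carrier (-7.38 ± 0.78), were higher in kidney. Slc25a46, a listed member that sits in the outer membrane, was of shared level (0.52 ± 0.17).

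Most genes that control, build and shape mitochondria were not called, 17 of 21 in biogenesis, 63 of 77 in the mitochondrial ribosome and 16 of 26 in shape and turnover. Most of all genes tested were not called either, with 20.6 percent called towards heart and 22.4 percent towards kidney. Of 21 regulators of biogenesis, 4 were higher in heart, none was higher in kidney and 5 were of shared level. The shares towards heart and of shared level, 19 and 23.8 percent, lay near the 20.6 and 21.2 percent of all genes tested. Of 77 mitochondrial ribosomal proteins, 13 (16.9 percent) were higher in heart, 1 (1.3 percent) in kidney and 28 (36.4 percent) were of shared level. Perm1, a muscle partner of the PGC-1 coactivators, was higher in heart by 5.62 ± 0.35 (log2, SE) and Tfb2m, a mitochondrial transcription factor, by 1.07 ± 0.20, a call lost without kidney WT 1 (0.97) or heart KO 1 (0.99). Ppargc1a itself was not called (0.82 ± 0.23) and Tfam, which packages mitochondrial DNA, was of shared level (0.14 ± 0.23). Esrra (1.10 ± 0.41) lost its call towards heart without kidney WT 2 (0.78), kidney KO 2 (1.07) or heart WT 1 (1.05), and Ppargc1b (1.56 ± 0.59) without kidney KO 1 (1.42), kidney KO 2 (1.52) or heart KO 2 (1.14). Kidney WT 2 was low for both, with Esrra at 4.85 RPKM against 17.1 to 24.2 in the other kidney libraries. Esrrb was of shared level (0.32 ± 0.21) and Esrrg was not called (-0.73 ± 0.20), while Pparg was higher in heart (2.29 ± 0.36) at 4.43 to 6.34 RPKM. Among ribosomal proteins, Mrpl42 (1.92 ± 0.30) and Mrpl55 (1.99 ± 0.29) were higher in heart, Mrps6 was higher in kidney (-1.72 ± 0.26) and Mrpl12 was of shared level (0.21 ± 0.28).

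Of 26 genes of mitochondrial shape and turnover, 9 were higher in heart, 1 in kidney and 6 were of shared level. These are 34.6, 3.85 and 23.1 percent, beside 20.6, 22.4 and 21.2 percent of all genes tested. The mitofusins, which join outer membranes, were both higher in heart, Mfn2 by 3.28 ± 0.39 and Mfn1 by 2.001 ± 0.19 (log2, SE), as was the fission factor Mtfp1 by 2.77 ± 0.18. Chchd6 of the cristae junction was higher in kidney (-1.41 ± 0.29), and the fission receptor Fis1 (-0.19 ± 0.33) and Micos13 (-0.07 ± 0.38) were of shared level. In the machinery of calcium uptake, Mcu, the pore, was of shared level (-0.24 ± 0.18), as were its regulator Smdt1 (-0.09 ± 0.32) and Letm1 (0.00 ± 0.16). Mcub, a pore subunit that lowers uptake, was called higher in heart (1.66 ± 0.59) but not without heart KO 1 (1.37), and Micu3 was higher in kidney (-1.20 ± 0.19). Of the channels of the outer membrane, Vdac3 was higher in heart (1.38 ± 0.28) and Vdac1 was not called (0.86 ± 0.29) but passed without kidney WT 2 (1.12). Of 9 antioxidant enzymes, 2 were higher in heart, 2 in kidney and 2 of shared level, 22.2 percent each and near the share of all genes. Sod2 of the matrix was higher in heart (1.21 ± 0.24), a call lost with library totals (0.96) or the heart libraries numbered 2 alone (0.999), and Gpx1 (-3.84 ± 0.34) and Prdx5 (-1.65 ± 0.39) were higher in kidney.

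The sodium pump of the plasma membrane works with a beta subunit and a small FXYD regulator. Atp1b1 was the leading beta subunit in both organs, with 63.1 ± 4.4 percent of the family in heart and 89.1 ± 1.7 percent in kidney (SD, n = 4). Its level was higher in kidney (-2.85 ± 0.24, log2, SE) and Atp1b3 was not called (-0.63 ± 0.25).

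The FXYD regulators were exchanged almost wholly. Fxyd1, phospholemman, measured 236, 123, 239 and 135 RPKM in heart and 1.37, 6.7, 2.33 and 3.63 RPKM in kidney, a log2 fold change of 5.73 ± 0.56 (SE). Fxyd2, the gamma subunit of the renal pump, measured 482, 1231, 868 and 859 RPKM in kidney and 0.909, 0.515, 0.732 and 0.404 RPKM in heart, a log2 fold change of -10.43 ± 0.55. No value of either gene overlapped. Fxyd4, the form of the collecting duct, was also higher in kidney (-8.40 ± 0.70). Together Fxyd1, Fxyd5 and Fxyd6 held 99.6 ± 0.0957 percent of the family in heart and 0.998 ± 0.178 percent in kidney.

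Calcium release channels differed between the organs. The cardiac ryanodine receptor Ryr2 measured 38.9, 39, 25.4 and 68.4 RPKM in heart and 0.0269 to 0.0719 RPKM in kidney (9.69 ± 0.50, log2, SE), while the inositol trisphosphate receptors Itpr1 (-2.27 ± 0.21) and Itpr2 (-1.90 ± 0.27) were higher in kidney. Atp2a2, the pump that refills the store, was higher in heart, at 1267, 1430, 1519 and 1760 RPKM against 31.1, 23.4, 36.1 and 30.5 RPKM in kidney (5.63 ± 0.34). It was nonetheless the leading gene of its family in both organs, with 99.9 percent in heart and 94.5 percent in kidney. Atp2b1, the calcium pump of the plasma membrane, was of shared level, at 6.26, 5.92, 5.53 and 7.64 RPKM in heart and 4.82, 7.72, 5.23 and 6.43 RPKM in kidney (0.07 ± 0.21, 95% interval -0.40 to 0.54), and the organs overlapped.

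Of 31 genes of cardiac excitation and calcium release, 30 were higher in heart, none was higher in kidney and the median log2 fold change was 6.001. They included Casq2, the calcium store protein (11.86 ± 0.51, SE), Hrc, another calcium-binding protein of the store, at 437 to 662 RPKM in heart and at most 0.226 RPKM in kidney, and Pln, phospholamban, which restrains the calcium pump, at 895 to 1323 RPKM in heart, with 64.7 percent of its exon bases shared with other genes. Sln, sarcolipin of the atrium, measured 98.2, 183, 2.22 and 46 RPKM in heart and had no count in kidney, and its heart mean was at least 991-fold higher, taking 3 counts per kidney library as the limit. The bound was 587-fold without heart WT 2 and 27-fold for heart KO 1 alone. It was lowest in heart KO 1, as were the atrial markers Myl4, Myl7 and Nppa. Because the list is of genes known for the heart, its direction restates the organ.

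Renal tubule ion transport was the mirror image, with 35 of 36 genes higher in kidney and none higher in heart. The median log2 fold change was -9.57 (-8.88 with genes that had no count in heart set at their limit). This list is of genes known for the kidney, so its direction likewise restates the organ. Slc12a1, the cotransporter of the thick ascending limb, measured 216, 228, 241 and 255 RPKM in kidney, with 0 to 4 counts in any heart library. Slc12a3, its distal relative, measured 339, 21.1, 161 and 153 RPKM in kidney, lowest in WT 2, and 0.0139 to 0.467 RPKM in heart. Slc34a1, the phosphate transporter of the proximal tubule, measured 933, 115, 602 and 337 RPKM in kidney, and the glucose transporter Slc5a2 measured 186, 16.5, 108 and 89.2 RPKM, both again lowest in WT 2. Kcnj16 (154 to 324 RPKM), the exchanger Slc9a3 (-6.88 ± 0.29, log2, SE) and carbonic anhydrase Car2 (-6.38 ± 0.34) were higher in kidney too. Slc34a3, Bsnd and Cldn16 had no count in heart, and their kidney means were at least 441-, 421- and 200-fold higher by the same limit.

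Aqp1 was the renal gene that heart matched. This water channel of proximal tubule and thin limb is also known from the endothelium of capillaries. It measured 135, 186, 145 and 233 RPKM in heart and 146, 177, 230 and 235 RPKM in kidney, a log2 fold change of -0.15 ± 0.24 (SE) with a 95% interval of -0.70 to 0.39. The organs overlapped over almost their whole range. The endothelial markers summed to more CPM in every heart library than in any kidney library, and their part in the level of Aqp1 was not tested.

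The V-ATPase, a proton pump of lysosomes that intercalated cells also place on their surface, was extended in kidney by extra forms. Of 24 subunits tested, 13 were higher in kidney, none was higher in heart and 4 were of shared level. These are 54.2, 0 and 16.7 percent, beside 22.4, 20.6 and 21.2 percent of all genes tested. Atp6v1g3 measured 67.3, 113, 61.4 and 74.3 RPKM in kidney and had no count in heart, with a kidney mean at least 1030-fold higher. Atp6v1b1 measured 33.6, 18.4, 28.5 and 25.3 RPKM in kidney, with 2 counts in 1 heart library. Atp6v0a4 (-9.09 ± 0.51, log2, SE), Atp6v1c2 (-8.10 ± 0.47) and Atp6v0d2 (-7.95 ± 0.55) were likewise nearly absent from heart. These forms held 78.7 (Atp6v0a4), 39.7 (Atp6v1c2), 36.4 (Atp6v0d2), 30.7 (Atp6v1b1) and 21.9 percent (Atp6v1g3) of their families in kidney and at most 0.57 percent on average in heart. Of the common forms, Atp6v1a was higher in kidney (-4.12 ± 0.31), and Atp6v1b2 (-1.58 ± 0.21) and Atp6v1f (-1.57 ± 0.42) were higher there as well, whereas Atp6v1c1 (-0.74 ± 0.20) and Atp6v1g1 (-0.71 ± 0.27) were not called. Atp6v0a2 (0.10 ± 0.16) and Atp6v1d (-0.11 ± 0.23) were of shared level.

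**Figure D5:**
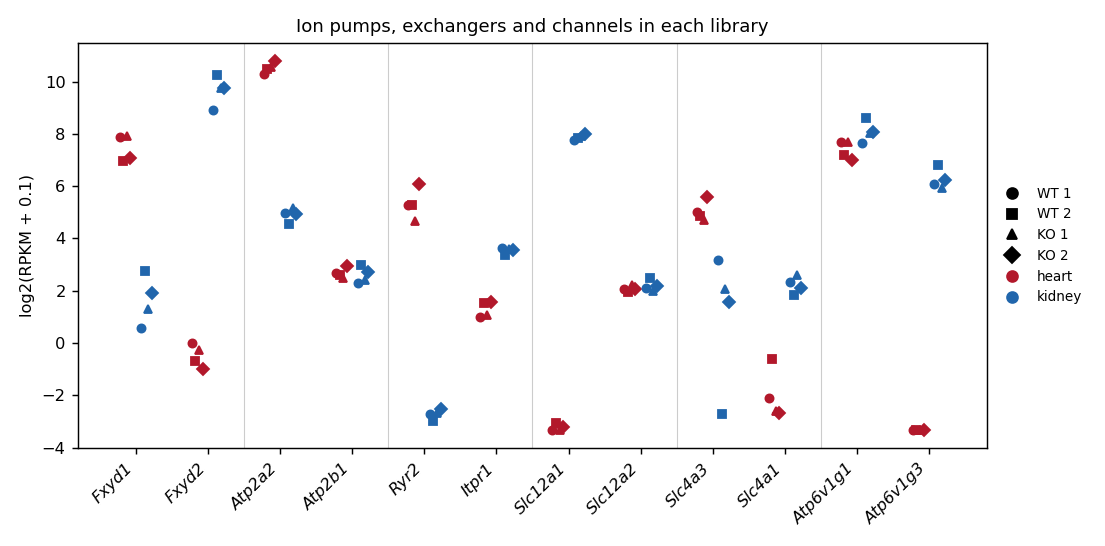
Level, as log2 of RPKM plus 0.1, of 12 ion handling genes in each heart (red) and kidney (blue) library, with the marker giving genotype and replicate. Fxyd1, Atp2a2 and Ryr2 lie higher in heart, Fxyd2, Slc12a1 and Atp6v1g3 lie higher in kidney, Atp2b1 and Slc12a2 overlap, and Slc4a3 is lowest in kidney WT 2.

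Of 18 transporters of cell volume and pH that many tissues use, 3 were higher in heart, 3 were higher in kidney and 7 were of shared level. The calls are 16.7 percent in each direction, near the 20.6 and 22.4 percent of all genes tested. The shared level took 38.9 percent, beside 21.2 percent of all genes tested, a difference that was not tested. Slc12a2, the widely expressed cotransporter of sodium, potassium and chloride, was of shared level (-0.11 ± 0.18, log2, SE) at 3.79 to 4.6 RPKM in heart and 3.82 to 5.49 RPKM in kidney. It made up 96.0 ± 4.6 percent of its family in heart and 1.23 ± 0.63 percent in kidney, where the renal members were added on top of it. Clcn4 was of shared level as well (0.10 ± 0.16). Of the anion exchangers, Slc4a2 was of shared level (-0.05 ± 0.39), Slc4a3 was higher in heart (3.09 ± 0.99) and Slc4a1, known from red cells and intercalated cells, was higher in kidney (-4.77 ± 0.69). Slc4a3 stood at 8.83, 0.0501, 4.07 and 2.87 RPKM in kidney, far lowest in WT 2. Slc12a4 was higher in heart (1.86 ± 0.29) and Lrrc8d of the volume-regulated channel was higher in kidney (-2.55 ± 0.25).

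Among all genes of shared level, the most abundant were Rps15, Rps3a1, Hspa8, Rpl36 and B2m, which encode ribosomal proteins, a chaperone and the light chain of class I antigens. Their log2 fold changes lay from -0.10 ± 0.36 (Hspa8) to 0.21 ± 0.34 (Rps3a1) (SE), and in kidney all 5 were highest in WT 2. Reads of ribosomal genes can be split with near-identical copies elsewhere in the genome, which adds uncertainty to their levels. Of the 30 genes of shared level named in the text, 13 stayed within 2-fold with any single library left out: Acss1, Aqp1, Atp2b1, Atp6v0a2, Atp6v1d, Clcn4, Esrrb, Letm1, Mcu, Pck2, Slc12a2, Slc6a8 and Tfam. The other 17, from ribosomal proteins to Oxct1, Mpc2, Pfkp, Pgk1, Mrpl12, Ndufb6, Smdt1, Fis1, Micos13, Slc25a46, Slc27a4 and Slc4a2, had an interval past 2-fold in at least 1 such fit, where their log2 fold changes lay between -0.58 and 0.60.

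The difference between heart and kidney was also compared between the genotypes. With an interaction term of organ and genotype, the quasi-likelihood test of edgeR, adjusted by Benjamini-Hochberg, called 0 of 17332 genes (0 percent), with 248 (1.43 percent) at an unadjusted p under 0.05, and DESeq2 called 0, with 299. With 2 libraries per organ and genotype, a modest dependence could have gone undetected. Without kidney WT 1 the count was 199, and kidney WT was then represented by WT 2 alone.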

How the data were processed

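Poly(A) RNA of heart and kidney was sequenced in 4 libraries per organ, out of 20 libraries of 5 organs. Per the labels and the header of the table, the authors trimmed reads with cutadapt, aligned them with HISAT2 2.1.0 to mm10 and deposited whole-number counts per gene from featureCounts 2.0.1 on an Ensembl annotation of that build. The study's methods print a human build in 1 place and a stranded setting, while the command in the table's header shows neither strand nor pair options. Counts of genes that overlap another gene are therefore less certain. Of 692 listed genes, 232 share exon bases with another. Counts were used as deposited, and no column of the authors' own comparisons was used. Members of the lists and families were chosen with earlier results of these data known.

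Genes passing filterByExpr were fitted in edgeR 4.0.16 (R 4.3.3) with trimmed-mean scaling and a robust quasi-likelihood test of organ with genotype as a covariate, on these 8 libraries, which share 1 estimate of the spread. Calls needed an adjusted p under 0.1 and a fold over 2, the thresholds of the study, and SE was the log2 fold change over the root of its F value. Values in RPKM used scaled totals and exon lengths, summed values of other organs included. Where a symbol was repeated, the gene with most counts was used. Named genes were Nsun6, every member of the families, the 4 most abundant, the 3 most changed in each direction and the 3 most abundant of shared level in each list, all of lists of 15 or fewer, markers, and over all genes the 5 of smallest p in each direction and the 5 most abundant of shared level. A selection of these is printed, and some members are not reported here. Folds against an organ without a count used a limit of 3 counts per library, which covers counting error only. The fit was tested on simulated data, but the outcome is not reported here and lends no support to the calls. DESeq2 1.42.0, other scalings, filters and thresholds, a replicate block, each genotype alone and each library left out were the alternatives.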

Additional observations from a re-analysis of the deposited data

Results flagged for a closer look

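In 1 of 122 groups of 4 libraries examined, a library lay far from the other 3 by Dixon's test, where chance gives about 1 in 20. Idh2 measured 730 RPKM in heart KO 1 and 547 to 575 RPKM in the other heart libraries, all of them above every kidney library.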

How the results depend on the processing

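No listed gene was called in the opposite direction under any alternative run, and the shares of the switching families did not move beyond their spread. With at least 10 counts in every library, 1953 genes were higher in heart and 2435 in kidney, with 24 and 26 in the ion handling lists, since genes absent from 1 organ were no longer tested. Without a fold threshold the mitochondrial lists held 169 genes higher in heart and 32 in kidney. With a fold over 4 the counts were 1874 and 2450 over all genes, 88 higher in heart over all lists, 21 in the mitochondrial lists (13 in kidney), 35 in fuel use, 5 respiratory subunits and 11 switching families. WT libraries alone gave 123 listed genes higher in heart, 46 mitochondrial, 13 respiratory, 10 switching families and 238 genes of shared level. KO libraries alone, as many, gave 215, 124, 66, 22 and 2839, and the cause of the difference was not tested. Heart libraries numbered 1 alone, an alternative chosen after seeing the data, gave 2263 genes of shared level, and those numbered 2 alone gave 2277, with 69 mitochondrial genes and 26 respiratory subunits higher in heart. There the log2 fold changes of Ndufa2 (-0.61), Cox7a2 (-0.22) and Uqcr10 (-0.26), none of them called, turned negative, as did Ndufa2 without heart KO 1 (-0.0024 in a range up to 0.918 over the fits with 1 library left out). The interaction of organ and genotype gave 38 genes without the filter on low counts. Taking TPM in place of RPKM moved the log2 ratio of summed levels to 1.45 (citric acid cycle), 2.14 (creatine), -1.30 (carnitine), 0.84 (biogenesis), 6.89 (cardiac excitation) and -0.015 (volume and pH). Of the calls named in the text, 10 were lost with at least 10 counts in every library, 29 in WT and 4 in KO libraries alone, 8 and 6 with heart libraries numbered 1 or 2 alone, 5 at an adjusted p under 0.05 and 1 (Cox6b1) with DESeq2. The cause of these moves was otherwise not tested.

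With each library left out in turn, genes higher in heart ranged from 3452 to 3914 and in kidney from 3772 to 4202, respiratory subunits higher in heart from 37 to 69, switching families from 18 to 22, genes of shared level from 2710 to 4274 and interaction genes from 0 to 199. Deviations of same-numbered heart and kidney libraries correlated at -0.043, -0.043, -0.049 and 0.14 (1 of 8 libraries matched its own number best). These values cannot show whether same-numbered organs came from the same mouse, because the deviations also went with GC content or gene length in several libraries. A replicate block gave 3542 genes higher in heart, 3759 in kidney, 47 respiratory subunits, 19 switching families, 3390 genes of shared level and 0 interaction genes. Of the listed calls it lost 8 and gained 3, among them Ldha (1.02), and of the named genes the calls of Cox6b1, Hk1 and Pdk2 were lost. Genes of few counts are limited by the shallowest library, heart KO 1 with 15897446 counts.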
